A study of Mus musculus with 9 samples.

Results

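The 10 genes described here encode Jumonji C (JmjC) histone demethylases and close relatives that act on lysine 9 or lysine 36 of histone H3: Kdm2a, Kdm2b, Kdm3a, Kdm3b, Jmjd1c, Kdm4a, Kdm4b, Kdm4c, Phf2 and Phf8. They were taken by symbol from a raw count table of 55011 gene symbols. All 10 were found, and all 10 were among the 10235 genes with enough counts to be tested. RNA came from naive CD8 T cells of the spleen of wild-type mice, which become killer lymphocytes once activated. Every group was activated for 6 h with plate-bound antibodies (4 µg/mL) against CD3, which signals for the T cell receptor, and CD28, a costimulatory receptor. The control group received no compound, and the D-2HG and L-2HG groups received 20 mM of the named form of 2-hydroxyglutarate when stimulation began, with 3 libraries per group. No unstimulated cells were among the samples. The labels give neither strain nor age of the mice. Whether the 3 libraries of a group stem from different mice or cultures is not stated, so each p-value reflects library-to-library spread that may be purely technical.

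JmjC demethylases are dioxygenases that use iron, oxygen and 2-oxoglutarate to oxidise a methyl group, which then leaves as formaldehyde. 2-Hydroxyglutarate resembles 2-oxoglutarate and can occupy its place in such enzymes, so these proteins are known as its targets. The RNA level of the genes measured here says nothing of enzyme activity. Methylated lysine 9 marks silent chromatin, while methylated lysine 36 lies over transcribed genes, and demethylases of the KDM2, KDM3, KDM4 and PHF families differ in which of these marks and which methylation states they remove.

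Gene counts per library ran from 562627 (L-2HG replicate 2) to 5731885 (control replicate 3), and the 10 genes together held 284 to 2098 of them. Cd8a was present in each library at 565 to 979 CPM, while Cd4, Lyz2 and Ncr1, which mark CD4 T cells, macrophages and NK cells, had at most 4 counts in any library. An 11-gene CD8 T cell list summed to 4642 to 6634 CPM in control, 3633 to 4628 with D-2HG and 3071 to 5259 with L-2HG, and a 7-gene B cell list to 182 to 282, 124 to 143 and 132 to 204. A dendritic cell list of 6 genes summed to 16.1 to 22.3 CPM in control, 24.5 to 35.8 with D-2HG and 21.3 to 35.4 with L-2HG. Its member Zbtb46, named after its values were seen, passed as higher with L-2HG (log2 fold change 1.102, edgeR adjusted p = 0.0382). Xcr1, also tested, did not (-0.21, edgeR adjusted p = 0.691). Of the 11 CD8 T cell genes, 6 passed as lower and 2 as higher with D-2HG, where 10.5% and 11.8% of all tested genes did. With L-2HG 3 passed as lower and 1 as higher (8.3% and 9.41% of all). Of 2 tested B cell genes, 1 passed as lower with each compound. A CD4 T cell list summed to 9.22 to 11.5, 12.3 to 17.1 and 10.7 to 18.3 CPM. The macrophage list summed to 3.98 to 7.03, 5.07 to 6.99 and 5.33 to 10.2 CPM, and the NK cell list to 2.27 to 5.02, 2.17 to 7.47 and 1.78 to 9.22 CPM. In bulk RNA, fewer cells of a type and less RNA per cell cannot be told apart, and the part of these sums in the results was not tested. The libraries also differed in 3 measures outside these genes. Satellite transcripts (Gm10800 and Gm10801) took 0.910 to 5.35% of counts in control, 3.79 to 17.0% with D-2HG and 6.71 to 24.4% with L-2HG. Transcripts encoded by mitochondria took 2.23 to 3.06%, 0.992 to 1.87% and 1.19 to 1.83%. Sensory receptor genes (1655 genes) are not known for expression in T cells. They held 206 to 820 CPM in control, 741 to 1116 with D-2HG and 1242 to 3229 with L-2HG. CPM in this paragraph are counts scaled to a common library total. In the paragraphs below they rest on the counts of the tested genes and on TMM scaling, as given under processing. Control replicate 2 had the highest satellite and sensory receptor values of the controls.

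With D-2HG, Kdm2b, Kdm3a, Kdm3b and Kdm4c rose, 4 of the 10 genes, and none fell (edgeR's quasi-likelihood fit, with p-values adjusted by Benjamini-Hochberg over all tested genes and a threshold of 0.05). Over all tested genes 22.3% passed in this comparison, 11.8% as higher and 10.5% as lower. With L-2HG, Kdm2b, Kdm3a, Kdm4c, Phf8 and Jmjd1c rose, 5 of the 10, and none fell, where 17.7% of all tested genes passed, 9.41% as higher and 8.3% as lower. Kdm2b, Kdm3a and Kdm4c thus rose with both compounds, and these comparisons share their control libraries. Between the compounds none of the 10 passed, where 0.303% of all tested genes did, 0.0489% as higher with D-2HG and 0.254% as lower. The lowest library of the D-2HG group stood above the highest control for 9 of the 10 genes, as for 20.7% of all tested genes, and none of the 10 lay wholly below control (19.3% of all). With L-2HG this held for 6 genes (16.4% of all), again with none below (14.8%). Between the compounds the ranges of all 10 genes overlapped, where 7.77% of all tested genes lay apart as higher with D-2HG and 8.13% as lower. The 10 genes are long, spanning 43087 to 163364 bp of genome against a median of 21675 bp over tested genes. Of the 2402 tested genes with spans in that range, 21.8% passed as higher with D-2HG, 17.7% with L-2HG and 0.0416% as higher with D-2HG than with L-2HG. The median log2 difference over the 10 genes was 0.81 with D-2HG and 0.81 with L-2HG, against 0.04 and 0.05 over all tested genes. Over the 2402 tested genes with spans in the range of the 10, it was 0.40 and 0.41. With other ways of scaling the libraries, the share of higher genes among all calls was 43.8 to 70.0% in place of 52.9% with D-2HG and 36.2 to 77.7% in place of 53.1% with L-2HG. DESeq2 size factors moved the median of all tested genes by -0.12 with L-2HG. The 10 genes stood above that median by a median of 0.76 with L-2HG under the main scaling and with DESeq2 size factors. A change of scaling shifts all genes nearly alike, so this distance could hardly move and is not a check of the rise.

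**Figure D1:**
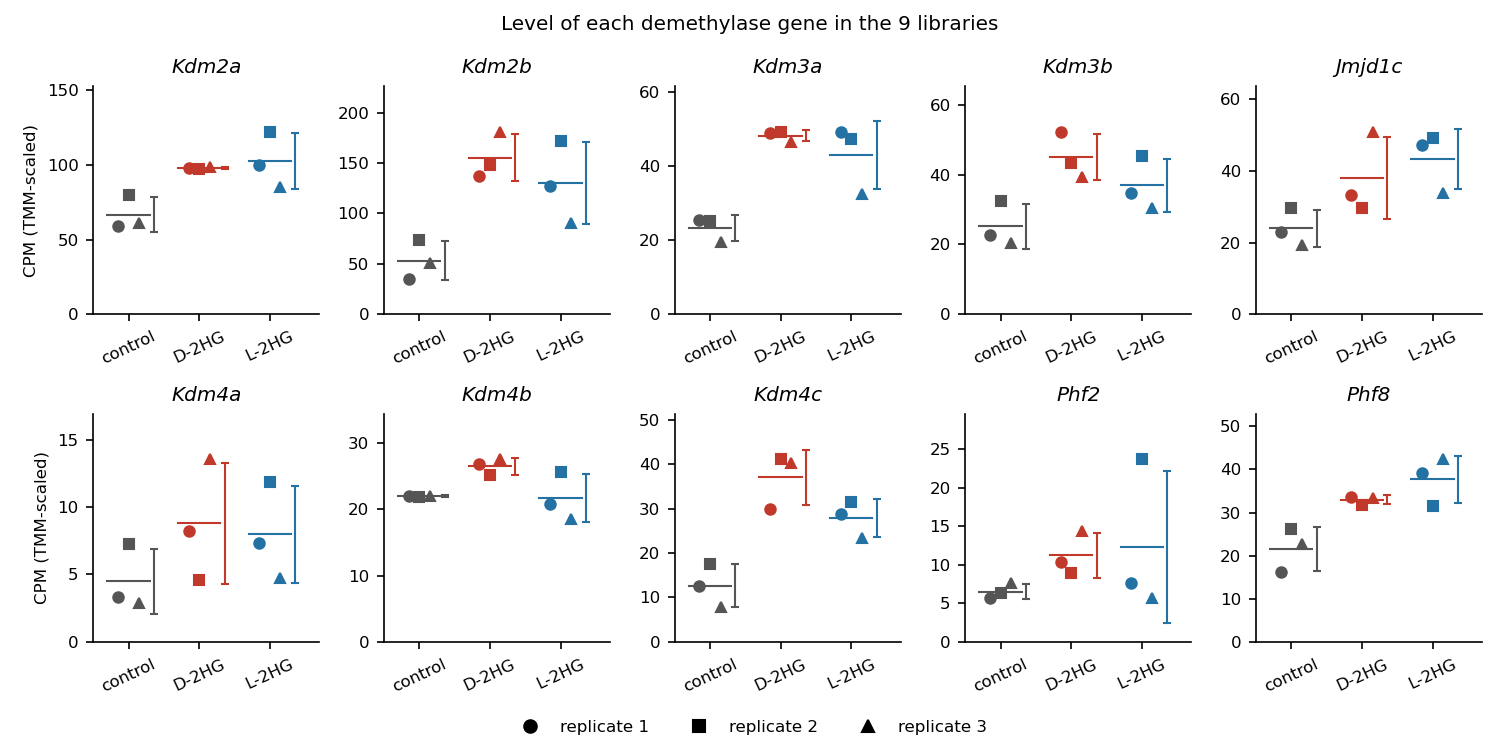
Level of each of the 10 genes in the 9 libraries, in CPM, on axes that start at 0. Each point is a library, marked by its replicate number. Horizontal lines are group means and the bars beside them are ±1 SD (n = 3). Kdm2a, Kdm2b, Kdm3a, Jmjd1c, Kdm4c and Phf8 lie wholly above control with both compounds, whereas Kdm4b stays between 18.6 and 27.5 CPM in every library.

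The KDM2 enzymes remove methyl groups from lysine 36 and carry a CXXC zinc finger that binds unmethylated CpG, and Kdm2b brings a Polycomb complex (PRC1.1) to CpG islands. Kdm2b (identifier ENSMUSG00000029475, chromosome 5, 122870665 to 122989823, GRCm38) read 35.3, 73.2 and 50.9 CPM in control replicates 1, 2 and 3. It read 137, 148 and 181 CPM with D-2HG and 127, 172 and 90.4 CPM with L-2HG. The lowest treated library stood above the highest control library. The log2 fold change was 1.56 ± 0.26 (SE) with D-2HG, a 2.96-fold rise with a 95% interval of 2.03 to 4.31 (edgeR adjusted p = 0.00111). With L-2HG it was 1.27 ± 0.27, a 2.41-fold rise with an interval of 1.64 to 3.55 (edgeR adjusted p = 0.00964). Exons of Rnf34 and of the antisense RNA A930024E05Rik, both on the opposite strand, overlap 5.77% and 1.83% of the Kdm2b exon bases, where reads without strand cannot be assigned. The call with D-2HG held in each of 20 alternative analyses. The call with L-2HG was lost in 3 of the 20: without control replicate 1 or control replicate 3 (edgeR adjusted p up to 0.0673) and with the satellite share as a covariate (log2 fold change 0.68, edgeR adjusted p = 0.557).

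Kdm2a, the other KDM2 gene, did not pass with either compound. It read 59.2, 80.0 and 61.0 CPM in control, 98.0, 97.5 and 98.4 CPM with D-2HG and 99.8, 122 and 85.1 CPM with L-2HG. All 6 treated libraries were above all 3 controls, by a smaller margin than for Kdm2b. The log2 fold changes were 0.56 (95% interval 0.14 to 0.99) and 0.60 (0.16 to 1.04), and neither passed (edgeR adjusted p = 0.0514 and 0.0518). Both lay just above the threshold, and Kdm2a passed in 10 of 20 alternatives with D-2HG and 6 of 20 with L-2HG.

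Annotated starts of Kdm2b fall into an upstream and an internal cluster, and the transcripts from the internal start are known to encode a short protein without the JmjC domain. The counts are per gene and do not separate them. The windows below are of Kdm2b, Kdm3a and Kdm4c, which rose with both compounds. Of each cluster of starts, the window with the most CpG was picked, and windows without CpG were skipped. Each runs from 250 bases before to 50 bases after a RefSeq start (build GRCm38.p6), with CpG, the dinucleotide that KDM2 zinc fingers bind, in capitals.
Kdm2b upstream start, chr5:122989050-122989349, minus strand: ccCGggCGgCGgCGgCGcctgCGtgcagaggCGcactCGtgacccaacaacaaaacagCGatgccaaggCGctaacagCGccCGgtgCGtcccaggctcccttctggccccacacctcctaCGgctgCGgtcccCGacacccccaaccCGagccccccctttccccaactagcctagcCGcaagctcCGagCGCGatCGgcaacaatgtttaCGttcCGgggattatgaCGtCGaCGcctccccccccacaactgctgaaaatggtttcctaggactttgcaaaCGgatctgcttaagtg
Kdm2b internal start, chr5:122900301-122900600, minus strand: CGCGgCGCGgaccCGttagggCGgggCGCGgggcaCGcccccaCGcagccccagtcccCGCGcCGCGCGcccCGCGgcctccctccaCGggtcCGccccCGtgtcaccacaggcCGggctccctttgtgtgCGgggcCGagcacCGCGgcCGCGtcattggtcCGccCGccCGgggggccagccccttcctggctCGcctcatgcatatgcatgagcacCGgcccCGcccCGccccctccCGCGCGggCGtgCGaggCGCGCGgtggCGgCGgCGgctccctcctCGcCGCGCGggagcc
Kdm3a start, chr6:71632637-71632936, minus strand: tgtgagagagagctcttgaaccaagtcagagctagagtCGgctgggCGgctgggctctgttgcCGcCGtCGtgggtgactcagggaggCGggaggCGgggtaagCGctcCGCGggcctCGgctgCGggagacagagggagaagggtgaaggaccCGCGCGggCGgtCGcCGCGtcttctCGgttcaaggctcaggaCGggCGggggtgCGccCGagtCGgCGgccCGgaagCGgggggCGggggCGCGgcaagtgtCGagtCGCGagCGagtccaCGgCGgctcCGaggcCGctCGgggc
Kdm4c start, chr4:74251629-74251928, plus strand: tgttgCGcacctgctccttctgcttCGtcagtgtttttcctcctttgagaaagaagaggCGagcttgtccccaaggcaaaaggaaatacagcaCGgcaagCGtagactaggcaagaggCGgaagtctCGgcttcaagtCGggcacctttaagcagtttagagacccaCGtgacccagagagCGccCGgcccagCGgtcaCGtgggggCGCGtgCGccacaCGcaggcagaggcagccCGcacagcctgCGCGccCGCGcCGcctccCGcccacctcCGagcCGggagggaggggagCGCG
Read here were 14 RefSeq start windows of 7 of the 10 genes, and the median window of all 32851 held 7 CpG. Windows on the chromosome of Kdm3b were left out, and the RefSeq windows used included none of Kdm2a or Kdm4b. The windows printed above held 28 (Kdm2b upstream), 49 (Kdm2b internal), 40 (Kdm3a) and 28 (Kdm4c). Since they were picked for CpG, their CpG and GC box counts cannot be compared with those of all windows. Of the windows of these genes not printed, those of Kdm2b held 47 and 18 CpG, those of Kdm3a 24 and 0, and that of Kdm4c 0. The GC box letters GGGCGG, searched on both strands, occurred 6 times in the internal and once in the upstream Kdm2b window, 4 times in the Kdm3a window and once in the Kdm4c window, and in 35.7% of all windows. The E-box letters CACGTG, which also contain the hypoxia response core ACGTG on each strand, occurred at 2 places in the Kdm4c window and in 7.15% of all windows. ACGTG itself occurred in 2 of the 14 windows, those of Kdm4c and Phf8, and in 19.6% of all windows. The antioxidant response core TGACNNNGC occurred in 5 of the 14 windows and in 12.4% of all windows. The 5 include a pair of internal Kdm2b windows that overlap over most of their length, so they are not separate places. These matches are descriptions of letters, and binding was not measured.

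Kdm3a and Kdm3b remove methyl groups from mono- and dimethylated lysine 9, and Jmjd1c is their closest relative. KDM3A is also known in human cells as a target of hypoxia-inducible factors. Kdm3a (ENSMUSG00000053470, chromosome 6, 71588972 to 71632990) read 25.6, 25.2 and 19.4 CPM in control and 48.9, 49.3 and 46.5 CPM with D-2HG. With L-2HG it read 49.4, 47.4 and 32.3 CPM. The treated libraries were all above the controls, with L-2HG replicate 3 lower than the other 5. It rose 2.08-fold with D-2HG (95% interval 1.49 to 2.90, edgeR adjusted p = 0.00627) and 1.83-fold with L-2HG (1.29 to 2.60, edgeR adjusted p = 0.0233). The D-2HG call was lost without control replicate 3 (edgeR adjusted p = 0.0624) and with the satellite covariate (0.129). The L-2HG call was lost in 8 of 20 alternatives: without control replicates 1 or 3 or L-2HG replicates 1 or 2 (edgeR adjusted p up to 0.138), by DESeq2 (0.0527), without a count filter (0.252), with only those groups fitted (0.0593) and with the satellite covariate (0.577).

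Kdm3b read 22.7, 32.5 and 20.3 CPM in control, 52.3, 43.4 and 39.3 CPM with D-2HG and 34.7, 45.4 and 30.4 CPM with L-2HG. The D-2HG libraries were all above the controls, and the L-2HG libraries overlapped them. The rise with D-2HG was 1.83-fold (95% interval 1.29 to 2.59, edgeR adjusted p = 0.0189). The log2 difference with L-2HG was 0.52 (-0.02 to 1.06) and did not pass (edgeR adjusted p = 0.147). Leaving out control replicate 1, control replicate 3, D-2HG replicate 1 or D-2HG replicate 2 ended the D-2HG call (edgeR adjusted p up to 0.122), as did dropping the count filter (0.138) and the satellite covariate (0.409). Of the annotated Kdm3b exon bases, 24.6% overlap a long noncoding RNA on the opposite strand, which has no entry of its own in the deposited counts. The tagmented libraries do not mark strand, so reads of either RNA there may be counted as Kdm3b.

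Jmjd1c read 23.0, 29.6 and 19.4 CPM in control, 33.4, 29.7 and 51.0 CPM with D-2HG and 47.2, 49.4 and 33.8 CPM with L-2HG. D-2HG replicate 2 was barely above control replicate 2, and D-2HG replicate 3 stood well above the other D-2HG libraries. Jmjd1c rose 1.81-fold with L-2HG (95% interval 1.22 to 2.67, edgeR adjusted p = 0.0379). With D-2HG the log2 difference was 0.67 (0.13 to 1.22, edgeR adjusted p = 0.0636). The L-2HG call was lost in 11 of 20 alternatives. These were leaving out control replicates 1 or 3, D-2HG replicate 1 or L-2HG replicates 1 or 2 (edgeR adjusted p up to 0.175), DESeq2 (0.0930), its size factors (0.0506), no count filter (0.273), only those groups fitted (0.0693), sensory receptor background subtracted (0.0851) and the satellite covariate (0.884).

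The KDM4 enzymes act on trimethylated and dimethylated lysine 9 and also on lysine 36. Of their 3 genes here, Kdm4c alone passed the test. Kdm4c (ENSMUSG00000028397, chromosome 4, 74242497 to 74405860) read 12.6, 17.4 and 7.78 CPM in control, 29.9, 41.1 and 40.2 CPM with D-2HG and 28.9, 31.6 and 23.3 CPM with L-2HG. No treated library reached down to the controls. The log2 fold change was 1.62 ± 0.28 (SE) with D-2HG, a 3.08-fold rise with a 95% interval of 2.05 to 4.64 (edgeR adjusted p = 0.00157). With L-2HG it was 1.18 ± 0.30, a 2.26-fold rise with an interval of 1.46 to 3.51 (edgeR adjusted p = 0.0187). The D-2HG call held in 19 of 20 alternatives and was lost with the satellite covariate (edgeR adjusted p = 0.0550). The L-2HG call was lost in 6: without control replicates 1 or 3 or L-2HG replicate 1 (edgeR adjusted p up to 0.117), without a count filter (0.0707), with only those groups fitted (0.0507) and with the satellite covariate (0.617).

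Kdm4b, which like Kdm4c is known in human cells as a hypoxia-induced gene, did not pass with either compound. It read 22.02, 21.81 and 22.08 CPM in control, 26.8, 25.1 and 27.5 CPM with D-2HG and 20.8, 25.7 and 18.6 CPM with L-2HG. The 3 controls lay close together, below the D-2HG libraries and within the range of the L-2HG libraries. The log2 difference was 0.27 (95% interval -0.21 to 0.74) with D-2HG and -0.08 (-0.60 to 0.44) with L-2HG (edgeR adjusted p = 0.395 and 0.847). The upper bounds correspond to rises of 1.67-fold and 1.36-fold.

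Kdm4a had the fewest counts, 6 to 30 per library. It read 3.32, 7.27 and 2.90 CPM in control, 8.26, 4.57 and 13.5 CPM with D-2HG and 7.31, 11.8 and 4.76 CPM with L-2HG. The groups overlapped. The log2 difference was 1.03 (95% interval 0.03 to 2.04) with D-2HG and 0.76 (-0.34 to 1.88) with L-2HG, neither past the threshold (edgeR adjusted p = 0.119 and 0.299). The D-2HG interval reaches a 4.12-fold rise, so at this depth it covers a change as large as that of Kdm4c.

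**Figure D2:**
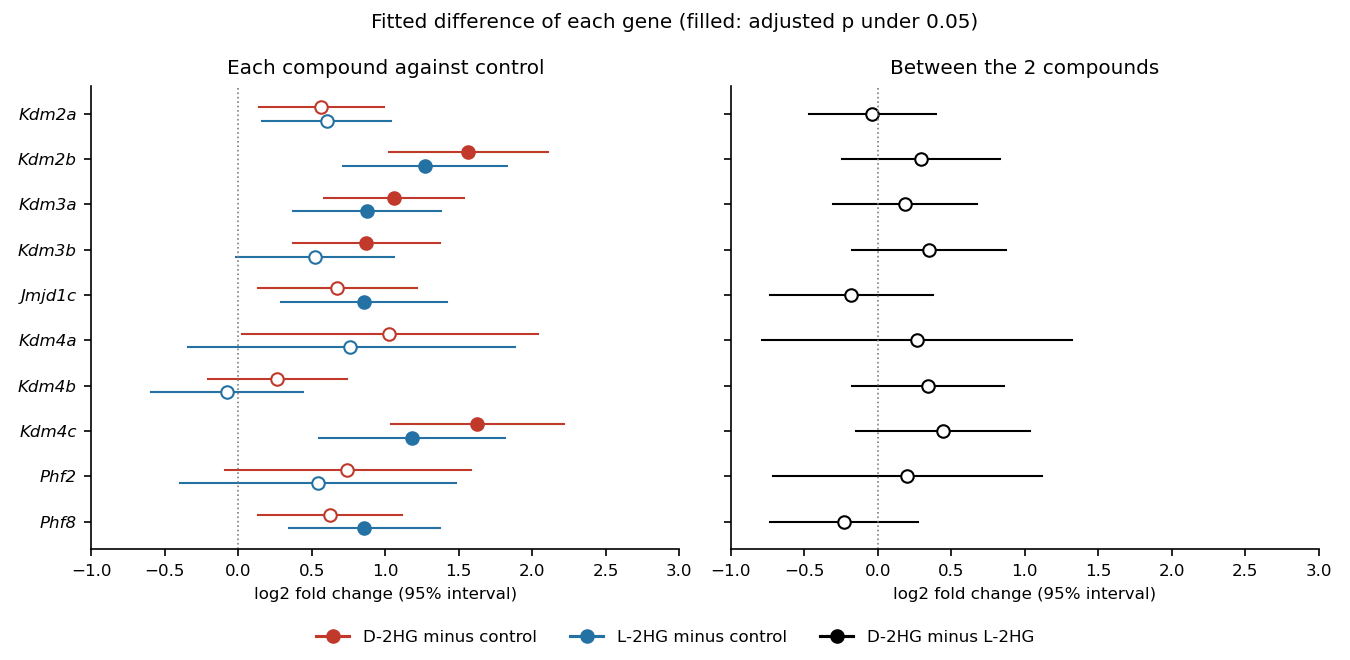
Fitted log2 fold change of each gene with its 95% interval (not adjusted for the number of genes), for each compound against control on the left and between the compounds on the right. Filled points passed at edgeR adjusted p under 0.05. On the left 4 D-2HG points and 5 L-2HG points are filled, and on the right all intervals span 0.

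Phf2 and Phf8 pair a JmjC domain with a PHD finger that binds trimethylated lysine 4 of histone H3, and Phf8 removes methyl groups from lysine 9. Phf8 read 16.1, 26.2 and 22.6 CPM in control, 33.7, 31.7 and 33.4 CPM with D-2HG and 39.1, 31.6 and 42.3 CPM with L-2HG. All treated libraries were above the controls, and it was among the genes whose fitted difference was larger with L-2HG. It rose 1.81-fold with L-2HG (95% interval 1.27 to 2.58, edgeR adjusted p = 0.0274). The log2 difference with D-2HG was 0.62 (0.13 to 1.12, edgeR adjusted p = 0.0606). The L-2HG call was lost in 8 of 20 alternatives: without control replicates 1 or 3 or L-2HG replicates 1 or 3 (edgeR adjusted p up to 0.130), by DESeq2 (0.0708), without a count filter (0.282), with only those groups fitted (0.0741) and with the satellite covariate (0.577).

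Phf2 had 12 to 42 counts per library. It read 5.68, 6.30 and 7.60 CPM in control, 10.3, 8.91 and 14.4 CPM with D-2HG and 7.68, 23.7 and 5.71 CPM with L-2HG. Of the L-2HG libraries, only the shallow replicate 2, where Phf2 had 12 counts, lay far above the controls. The log2 differences were 0.74 (95% interval -0.09 to 1.58) and 0.54 (-0.40 to 1.48), and neither passed (edgeR adjusted p = 0.174 and 0.387).

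Levels of different genes were compared as CPM per kb of annotated exon. In control cells Kdm2b (4.89 ± 1.75, SD, n = 3), Kdm2a (4.62 ± 0.80) and Kdm4b (4.49 ± 0.03) were the highest, with overlapping ranges, and Kdm4b stood clear of the next gene, Kdm3a (2.84 ± 0.42). Below it Phf8 (2.32 ± 0.55), Kdm4c (2.16 ± 0.83), Kdm3b (1.78 ± 0.46), Jmjd1c (1.34 ± 0.29), Phf2 (1.19 ± 0.18) and Kdm4a (0.777 ± 0.417) followed, each overlapping its neighbour. With D-2HG, Kdm2b (14.3 ± 2.12) stood clear of Kdm2a (6.78 ± 0.03), and Kdm4c, at the sixth place in control, was at the third (6.37 ± 1.06). With L-2HG, Kdm2b (11.9 ± 3.75) overlapped Kdm2a (7.09 ± 1.30), and Kdm4c (4.80 ± 0.72) was at the fourth place. In every group the range of Kdm4c overlapped those of the genes next above and below it, so its places are not resolved. Kdm4a had the lowest level per length in each group, with ranges that overlapped those of Phf2.

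**Figure D3:**
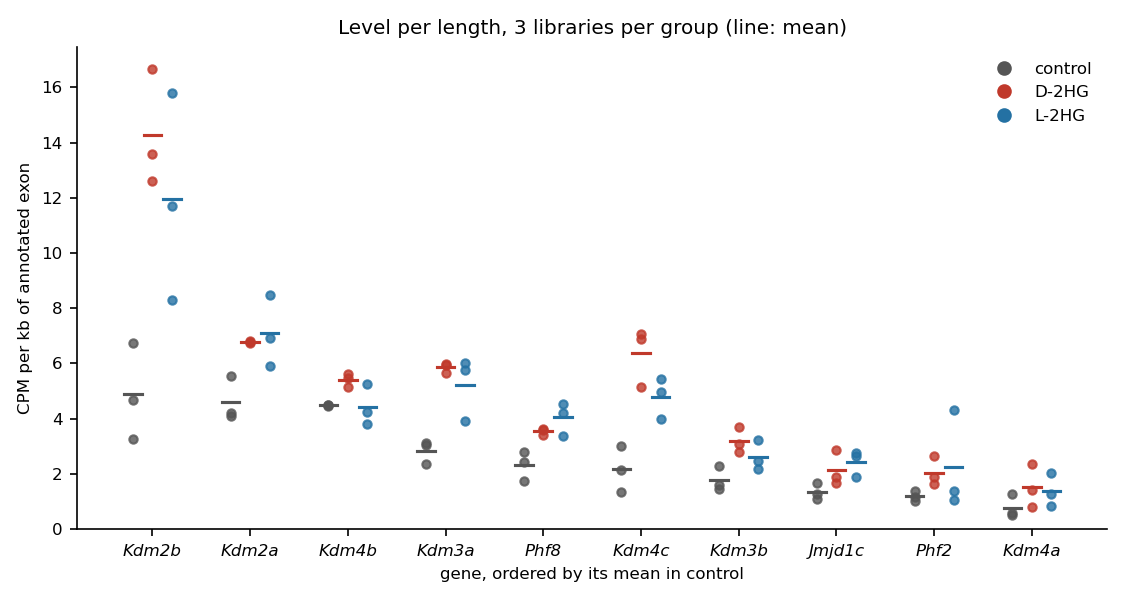
Level of each gene per length, in CPM per kb of annotated exon, on an axis from 0. Points are the 3 libraries of a group and short lines are group means, with genes ordered by their mean in control. Kdm2b is the highest gene by its mean in each group and Kdm4a the lowest.

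D-2HG and L-2HG are mirror images that differ in the configuration at the carbon carrying the hydroxyl group, and both were given at 20 mM for 6 h. None of the 10 genes differed between them by edgeR's test (smallest adjusted p = 0.817, for Kdm4c), and 0 of the 10 had an unadjusted p under 0.05, against 6.97% of all tested genes. Neither DESeq2 nor limma-voom called any of the 10. The difference, D-2HG minus L-2HG on the log2 scale, was positive for 7 genes and negative for Kdm2a, Jmjd1c and Phf8. It was 0.44 for Kdm4c (95% interval -0.15 to 1.04), 0.35 for Kdm3b (-0.18 to 0.87), 0.34 for Kdm4b (-0.18 to 0.86) and 0.29 for Kdm2b (-0.25 to 0.83). At the other end it was -0.23 for Phf8 (-0.74 to 0.27) and -0.18 for Jmjd1c (-0.73 to 0.37). The intervals leave room for a difference of up to 2.05-fold for Kdm4c and 1.78-fold for Kdm2b, so these values do not show that the forms act alike. The calls for Kdm3b with D-2HG alone and for Phf8 and Jmjd1c with L-2HG alone do not show a difference between the compounds, and the interval for Kdm3b leaves room for one of up to 1.83-fold.

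Control replicate 2, which received no compound, was itself higher than the mean of control replicates 1 and 3 for 8 of the 10 genes. The median difference over the 10 genes was 0.46 in log2 CPM, against 0.01 over all tested genes. It was 1.07 for Kdm4a, 0.78 for Kdm2b and 0.78 for Kdm4c, and 0.17 for Kdm3a. The mean of the D-2HG libraries stood above control replicate 2 by 1.07 for Kdm2b, 1.04 for Kdm4c and 0.92 for Kdm3a, and that of the L-2HG libraries by 0.77, 0.65 and 0.73. For Kdm4a these margins were 0.14 and 0.04. The satellite share, highest among the controls in replicate 2, moved in the same direction as these genes, and its part in the result was not tested beyond a fit that holds it constant. In that fit, added after the data were seen, 1 of the 10 genes passed with D-2HG (Kdm2b, log2 fold change 1.096, edgeR adjusted p = 0.0255) and 0 with L-2HG, where 96 and 8 of all tested genes passed. Leaving out the library with the highest satellite share in each group, also added later, gave 6 genes higher with each compound, Kdm2b, Kdm3a and Kdm4c among them. There 4493 and 4379 of 11355 tested genes passed, 2189 and 2203 of them as higher.

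**Figure D4:**
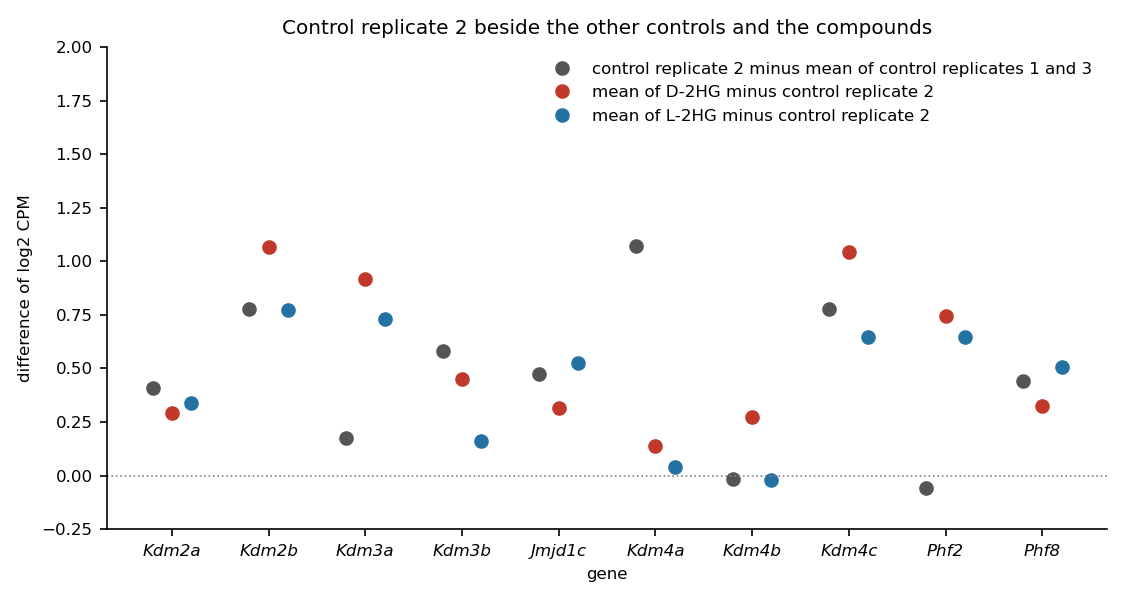
Difference of log2 CPM for each gene. Grey points set control replicate 2 against the mean of control replicates 1 and 3, and red and blue points set the mean of the D-2HG or L-2HG libraries against control replicate 2 alone. The grey point is above 0 for 8 of the 10 genes, and the red point is above 0 for all 10.

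The reads per base in sensory receptor genes give a level for DNA or stray reads that a gene could hold by its exon length alone. That level came to at most 6.86% of the Kdm2b counts, 14.3% of the Kdm4c counts and 14.5% of the Kdm3a counts in any library. For Phf8, Kdm3b and Jmjd1c, which passed with 1 compound, it reached 12.6%, 26.4% and 30.1%. For Kdm4a and Phf2 the level came to 69.4% and 54.9% at most. All these maxima lay in the L-2HG group. With this level subtracted from the counts, 5 of the 10 genes were higher with D-2HG and 4 with L-2HG, and Kdm2b, Kdm3a and Kdm4c were among them with both compounds. In that fit 1657 and 683 of 9726 tested genes passed, 1002 and 466 of them as higher.

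The genes on the opposite or adjoining side of these marks were read from lists of writers, readers and partners. For each list below, the share of all tested genes that passed was 22.3% with D-2HG and 17.7% with L-2HG, in either direction. Of the other JmjC relatives, 4 of 6 were tested and none passed with either compound, with log2 differences from -0.49 to 0.52 with D-2HG. With L-2HG the differences ran from -0.51 to 0.71. The median over them was -0.42 with D-2HG and -0.35 with L-2HG. Kdm7a, named after its values were seen, was positive with both compounds (0.52 and 0.71, edgeR adjusted p = 0.130 and 0.0629). Kdm8, Riox1 and Riox2 were negative with both. The lysine 4 demethylases Kdm1a and Kdm1b use flavin and not 2-oxoglutarate. Of these Kdm1b rose from a control mean of 9.56 ± 1.07 CPM to 35.9 ± 4.11 under D-2HG and 32.6 ± 18.3 under L-2HG (SD, n = 3; edgeR adjusted p = 0.000695 and 0.00894). The other of the pair, Kdm1a, named after its values were seen, did not pass, at 32.3 ± 2.50 CPM under D-2HG and 28.1 ± 3.12 CPM under L-2HG, beside 31.1 ± 4.99 CPM without compound.

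Among 6 lysine 9 methyltransferases, Ehmt1 rose with both compounds, from 44.6 ± 17.6 to 91.0 ± 14.2 and 98.6 ± 29.5 CPM (SD, n = 3; edgeR adjusted p = 0.0130 and 0.0155), and the other 5 did not pass. Among 6 lysine 36 methyltransferases, Ash1l rose with both (log2 fold changes 0.76 and 0.82, edgeR adjusted p = 0.0329 and 0.0339), Setd2, which makes the trimethylated form, rose with D-2HG (0.75) and Nsd1 with L-2HG (0.58). Smyd2 fell with D-2HG (-0.58). Of 6 proteins that bind or act at methylated lysine 9, the corepressor gene Trim28 fell with both compounds (-0.72 and -0.73) and Uhrf1 rose with L-2HG (1.20). Of 7 tested readers of methylated lysine 36, the DNA methyltransferase gene Dnmt3b rose with D-2HG (0.82), and none passed with L-2HG.

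Of 8 tested PRC1.1 partners of Kdm2b, the corepressor gene Bcor rose from 26.6 ± 1.66 to 46.9 ± 9.04 CPM under D-2HG and 60.8 ± 10.8 under L-2HG (SD, n = 3; edgeR adjusted p = 0.0201 and 0.00852). The ubiquitin ligase gene Rnf2 rose with D-2HG (log2 fold change 0.76) and Bcorl1 with L-2HG (1.03). Skp1a, an adaptor of the complex that also serves other ubiquitin ligases, fell with both (-0.82 and -0.84). The median over the list was 0.42 with D-2HG and 0.25 with L-2HG, beside the 0.04 and 0.05 of all tested genes. In none of these lists did a gene pass between the compounds.

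**Figure D5:**
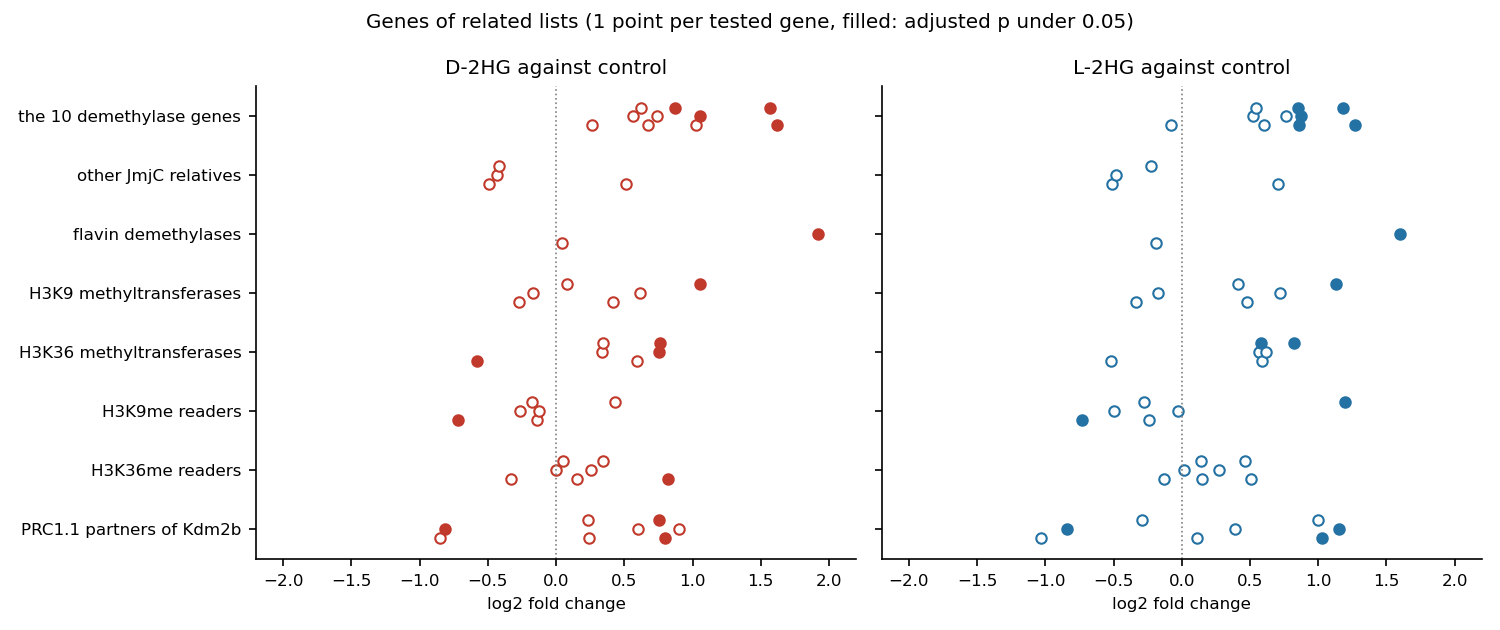
Log2 fold change of each tested gene of the related lists, 1 point per gene, with D-2HG on the left and L-2HG on the right. Filled points passed at edgeR adjusted p under 0.05, and vertical offsets only separate points. The 10 demethylase genes in the top line lie at 0.27 to 1.62 with D-2HG and -0.08 to 1.27 with L-2HG, and the other lines hold genes on both sides of 0 except the flavin demethylases with D-2HG.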

How the data were processed

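The deposited values are whole-number counts per gene symbol and library, made by the authors with STAR 2.7.3a and featureCounts on mm10, per the submitters' processing notes. Settings and annotation release are not given in the sources used here. RNA was captured with oligo(dT), amplified and tagmented, per the labels' protocols. Positions and exon lengths came from GENCODE M21 (GRCm38).

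The deposited counts went into edgeR 4.0.16 (under R 4.3.3) after filterByExpr (minimum count 10) and TMM scaling. A robust quasi-likelihood model with 1 mean per group was fitted to all 9 libraries (6 residual degrees of freedom) and tested on 10235 genes. Intervals are 95% intervals. DESeq2 1.42.0, limma-voom (limma 3.58.1), other scalings and filters, a replicate block and leaving out each library were alternatives. Replicates differed by more than counting error (chi-square per degree of freedom 5.83 to 42.4).

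The genes and lists were chosen with earlier results of these data known. Named are all 10 genes, at most 4 genes past the threshold per related list and comparison, and the 2 most similar genes of each of the 10 that passed, of which 1 is not reported here. A pair of further alternatives, on the satellite share, were chosen after seeing the data.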

Additional observations from a re-analysis of the deposited data

How the results depend on the processing

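Between the compounds none of the 10 genes passed under any of the 20 alternatives. With D-2HG, 4 genes passed in the main analysis, 8 by limma-voom, 1 with the satellite share as a covariate, and 2 to 8 with a library left out. With L-2HG, 5 passed in the main analysis, 2 by DESeq2, 8 by limma-voom, 1 without a count filter, 1 when only those groups were fitted, 0 with the satellite share as a covariate and 0 to 7 with a library left out. The 0 with L-2HG came without control replicate 1 or control replicate 3, the 2 with D-2HG without control replicate 3, and the 8 and 7 without control replicate 2. The cause was not tested. None of the 10 fell past the threshold in any of these. The replicate number as a block gave 5 genes with D-2HG, 6 with L-2HG and 0 between the compounds, and 2314 and 2284 of all genes in place of 2278 and 1812. Whether the replicate numbers pair the libraries is not stated. Same-numbered deviations correlated at -0.17 to 0.28. Of 18 best matches, 5 were to the library's own number, where 6 would be expected by count alone. These values cannot decide whether the libraries were paired, since they also differ in depth and satellite share. Over the repeats of the single-gene differences, 506 kept direction and side of the threshold, 45 lost and 27 gained a call, and 16 turned direction, none of them past the threshold in the main analysis. Only the 4 calls with D-2HG and the 5 with L-2HG, each repeated 20 times, could be lost, so all 45 losses fall on them. The 506 also hold differences not called in the main analysis, such as those between the compounds. With the satellite share as a covariate the log2 difference was -0.21 (D-2HG) and -0.57 (L-2HG) for Kdm4a and -0.20 for Phf2 with L-2HG, which was -0.028 without the highest-satellite library of each group. Kdm4b with L-2HG was 0.027 with unscaled library totals and 0.035 among genes with a mean count of at least 50, a filter that removes Kdm4a and Phf2. Between the compounds Kdm2a was 0.024 by DESeq2, 0.016 with its size factors, 0.10 without a count filter, 0.029 with the satellite covariate, 0.10 without the highest-satellite libraries and -0.11 to 0.091 with a library left out. Kdm4a there was -0.031 by limma-voom and -0.15 to 0.62 with a library left out, and Phf2 -0.12 to 0.71. Over all genes, 2278 calls with D-2HG became 5617 by limma-voom, 1341 without a filter, 96 with the satellite covariate, 4493 without the highest-satellite libraries and 384 to 4257 with a library left out. The 1812 calls with L-2HG became 5180, 1195 with a mean count of at least 50, 427 with only those groups fitted, 683 with the sensory receptor background subtracted, 8 and 4379 for the satellite alternatives and 65 to 4108 with a library left out. The 31 between the compounds became 177 by limma-voom, 76 and 165 for the satellite alternatives and 10 to 60 with a library left out. Kdm4a and Phf2 had 6 to 30 and 12 to 42 counts per library.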

Other observations

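For each of the genes that passed with either compound, the tested genes with the most similar profile were found by the mean absolute difference of gene-centred log2 CPM over the 9 libraries, among 8517 candidates. This is a description, since all profiles share the same libraries. The closest to Kdm2b were Kpna1, an importin (0.0902), and Map3k1, a kinase of the stress pathway (0.133). Those closest to Kdm4c were Atp6v1a, a subunit of the vacuolar proton pump (0.142), and Zbtb41 (0.147). Kdm3a was closest to Dnmt1, the maintenance DNA methyltransferase (0.103). Kdm3b was closest to Rap1gds1 (0.0844) and Rnf2 (0.0928), the latter also a listed Polycomb partner of Kdm2b. Jmjd1c was closest to Spg11 (0.0926) and Ogt, which adds N-acetylglucosamine to proteins (0.105), and Phf8 to Map4 (0.113) and Cep95 (0.117).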
